A study of Mus musculus with 12 samples.

Results

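H3K27ac and H3K4me1 were compared in cKit+ bone marrow cells of mice carrying a Phf6 R274X transgene (Tg), using 2 libraries per mark, 4 of the 12 libraries of the series. Within each mark, overlapping peaks of the 2 replicate lists were merged, and only merged regions with a peak in both replicates were kept. This left 24271 of 41781 merged H3K27ac regions (58.1%) and 66638 of 125764 merged H3K4me1 regions (53.0%). The strain was C57BL/6, and the comparison group was wild type (WT) cKit+ bone marrow cells of the same strain, with 2 libraries per mark. The labels do not give the promoter that drives the transgene, the age or sex of the mice, or whether animals were pooled. Nothing in the labels says that replicates came from separate animals, so a p-value here measures only the spread between libraries.

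H3K27ac is acetylation of lysine on histone H3, laid down by the acetyltransferases p300 and CBP at active promoters and active enhancers. H3K4me1 is monomethylation of a different lysine of the same histone, laid down mainly by the KMT2C and KMT2D complexes, and is found at enhancers and on the flanks of promoters. An enhancer with H3K4me1 and no H3K27ac is usually called primed, and one with both is called active. At the most active promoters the methylated lysine carries H3K4me3 instead of H3K4me1. Phf6 is an X-linked gene for a chromatin-binding protein that is mutated in human leukaemia, and cKit is the stem cell factor receptor used here to sort blood progenitors.

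The marks parted most clearly at gene starts. Of 21262 listed starts of protein-coding genes, 5265 (24.8%) had both marks in both replicates within 500 bp. A further 2708 starts (12.7%) had H3K27ac and no H3K4me1 in either replicate, 1759 (8.27%) had H3K4me1 and no H3K27ac, and 7997 (37.6%) had neither. The remaining 3533 starts (16.6%) had a mark in a single replicate. The starts with H3K27ac alone were the richest in CpG. In the 300 bases from 250 before to 50 after the start, their median observed-to-expected CpG ratio was 0.868, against 0.762 at starts with both marks, 0.581 with H3K4me1 alone and 0.208 with neither. H3K4me3 was present in all 4 libraries of that mark at 99.8% of starts with H3K27ac alone, 98.7% with both, 69.0% with H3K4me1 alone and 5.002% with neither.

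The promoters of 6 genes are given as examples from these classes. They are RefSeq sequences of build GRCm38.p6, written 5′ to 3′ on the gene's strand, with every CpG in capitals. Srsf6, a splicing factor, and Phf8, a histone demethylase, have the start-site regions with strong H3K27ac and no H3K4me1. Mpo and Elane encode enzymes of neutrophil granules and had both marks. Cd34, a progenitor surface protein, and Notch3, a receptor, had H3K4me1 alone.
Srsf6 (chr2:162931258-162931557, + strand): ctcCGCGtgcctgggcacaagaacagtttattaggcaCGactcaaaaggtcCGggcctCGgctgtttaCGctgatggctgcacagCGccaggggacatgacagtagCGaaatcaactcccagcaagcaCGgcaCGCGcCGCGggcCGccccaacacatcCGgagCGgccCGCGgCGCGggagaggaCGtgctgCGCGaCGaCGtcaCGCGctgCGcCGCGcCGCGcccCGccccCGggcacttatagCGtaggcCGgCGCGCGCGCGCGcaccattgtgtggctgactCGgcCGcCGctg
Phf8 (chrX:151520422-151520721, + strand): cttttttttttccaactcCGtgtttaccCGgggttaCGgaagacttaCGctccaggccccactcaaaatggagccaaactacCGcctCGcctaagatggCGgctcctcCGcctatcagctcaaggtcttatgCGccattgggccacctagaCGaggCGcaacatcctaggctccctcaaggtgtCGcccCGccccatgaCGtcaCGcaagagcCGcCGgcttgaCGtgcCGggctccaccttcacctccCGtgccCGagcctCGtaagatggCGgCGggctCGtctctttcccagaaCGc
Mpo (chr11:87793534-87793833, + strand): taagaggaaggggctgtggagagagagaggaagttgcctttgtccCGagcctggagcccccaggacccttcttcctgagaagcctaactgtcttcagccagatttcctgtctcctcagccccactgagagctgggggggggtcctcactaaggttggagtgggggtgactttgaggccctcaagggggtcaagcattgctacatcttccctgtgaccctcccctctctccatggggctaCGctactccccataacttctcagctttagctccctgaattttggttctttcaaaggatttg
Elane (chr10:79886062-79886361, + strand): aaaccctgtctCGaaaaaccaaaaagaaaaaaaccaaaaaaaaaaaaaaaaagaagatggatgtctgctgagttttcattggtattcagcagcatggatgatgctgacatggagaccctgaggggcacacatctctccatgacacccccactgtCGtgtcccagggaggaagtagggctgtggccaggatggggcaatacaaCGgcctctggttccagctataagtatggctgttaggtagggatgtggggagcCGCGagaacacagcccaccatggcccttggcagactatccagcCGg
Cd34 (chr1:194938571-194938870, + strand): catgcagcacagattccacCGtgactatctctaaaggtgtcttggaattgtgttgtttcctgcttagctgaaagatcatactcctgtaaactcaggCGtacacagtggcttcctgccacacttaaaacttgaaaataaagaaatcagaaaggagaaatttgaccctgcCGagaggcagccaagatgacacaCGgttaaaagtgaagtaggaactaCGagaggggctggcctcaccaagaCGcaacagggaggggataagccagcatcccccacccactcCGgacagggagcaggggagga
Notch3 (chr17:32166841-32167140, - strand): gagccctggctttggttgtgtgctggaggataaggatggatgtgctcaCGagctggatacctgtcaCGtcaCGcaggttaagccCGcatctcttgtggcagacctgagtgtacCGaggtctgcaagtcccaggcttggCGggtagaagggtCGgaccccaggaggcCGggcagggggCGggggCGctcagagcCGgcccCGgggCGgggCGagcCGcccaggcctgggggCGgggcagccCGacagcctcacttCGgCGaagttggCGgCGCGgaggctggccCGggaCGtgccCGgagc

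Srsf6 has 45 CpG in these 300 bases and Phf8 has 26. Mpo has 2, Elane has 6 and Cd34 has 7, fewer than the median of their classes. That median is 20 CpG at starts with both marks, 15 with H3K4me1 alone and 25 with H3K27ac alone. Notch3, with 25 CpG, shows that a CpG-rich start can carry H3K4me1 without H3K27ac. Of 8 short motifs searched, some differed between the classes and others did not. The letters CCGGAAG, the core bound by ETS factors, stood on either strand in 24.8% of promoters with H3K27ac alone and 20.6% with both. Only 4.26% of promoters with H3K4me1 alone and 2.33% with neither had them, against 11.6% of all promoters. The GC box GGGCGG was in 72.0% of promoters with H3K27ac alone, 62.9% with both, 56.9% with H3K4me1 alone and 17.5% with neither, against 46.2% of all. The E-box CAGCTG ran the other way, in 10.1% of promoters with H3K27ac alone and 20.2% with H3K4me1 alone. The CCAAT box, CCAAT, was in 40.4% of promoters with H3K27ac alone, 36.5% with both, 32.6% with H3K4me1 alone and 39.5% with neither. The PU.1-like box GAGGAAGT was in 2.95, 3.84, 3.01 and 2.96% of these classes. All motifs were searched on both strands. A match is a string in this window and not a bound site. CCGGAAG and GGGCGG each contain a CpG, and the classes differ in CpG. The part of CpG content in the motif differences was not tested.

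The H3K27ac lists held 33179 and 38839 peaks and the H3K4me1 lists 104781 and 121172. Read depth is unknown because the lists hold no counts, so lengths and numbers of peaks can differ with depth as well as with the mark. The peak names inside the lists number the H3K27ac libraries 2 and 3 and the H3K4me1 libraries 4 and 3. In the H3K4me3 lists the inside names give the other genotype than the library label, so that mark is used here only as present in all 4 of its libraries or absent. The progenitor genes Kit, Myb and Spi1 had both marks in both replicates within 10 kb. Cd34 had H3K4me1 only, and Gata2 had H3K27ac in a single replicate. Markers of mature granulocytes had both marks at 17 of 17 genes, against 53.7% of all genes, and whether mature cells were present was not tested. A share of cells with a mark and the amount of mark per cell cannot be told apart in bulk peaks.

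A larger share of H3K27ac length lay under H3K4me1 than the reverse. The kept H3K27ac regions covered 32.2 Mb and the H3K4me1 regions 100.1 Mb, and 19.3 Mb carried both. This was 59.7% of H3K27ac length and 19.2% of H3K4me1 length. The H3K27ac share was 49.2% with a −log10 q of at least 5, 41.9% over base pairs covered in both replicates and 36.8% among the 30000 strongest peaks of each library, where the H3K4me1 share was 24.9%. Of H3K27ac regions, 20916 (86.2%) touched an H3K4me1 region by at least 1 bp, 1787 touched H3K4me1 peaks of a single replicate, and 1568 (6.46%) touched none. Of H3K4me1 regions, 23889 (35.8%) touched H3K27ac and 35035 (52.6%) touched none. Contact was rarely marginal, since 51.4% of the touching H3K27ac regions were covered over more than 90% of their length and 3.43% over less than 10%.

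Peaks of both marks were of similar width in the full lists. Median widths were 591 and 574 bp for H3K27ac and 486 and 619 bp for H3K4me1, means of 582.5 ± 12.02 and 552.5 ± 94.0 bp (SD, n = 2 each; exact permutation test, two-sided p = 1). Among the 30000 strongest peaks of each library the difference, H3K27ac minus H3K4me1, was -550.5 bp (exact permutation test, p = 0.333). Regions that touched the other mark were wider than those that did not. Contact needs only 1 bp, which a wider region meets more easily, and the part of this rule in the difference was not tested. Median width was 1172 bp for H3K27ac regions touching H3K4me1 and 672.5 bp for those touching none, and 1498 against 916 bp for H3K4me1 regions touching H3K27ac or none.

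H3K27ac peaks lay closer to gene ends. At a distance of at most 1 kb from a gene end lay 32.5 and 28.7% of H3K27ac peaks, against 15.4 and 18.4% of H3K4me1 peaks. Both H3K27ac libraries were above both H3K4me1 libraries, a difference of 13.8 percentage points (exact permutation test, p = 0.333, the smallest that 2 against 2 libraries allow). The median distance to a gene start was 13935 and 16257 bp for H3K27ac and 20603 and 21085.5 bp for H3K4me1.

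Around starts the marks took complementary positions. At the 12468 starts with H3K4me3 in all 4 libraries, H3K27ac covered 60.5 and 71.7% of start positions and reached 70.2 and 76.5% at 200 bp downstream. H3K4me1 covered only 8.96 and 18.4% of start positions, its lowest values within 1500 bp on either side. It peaked on both flanks, with 28.0 and 47.9% at 600 bp upstream and 36.3 and 58.0% at 1100 bp downstream. By 5 kb downstream H3K4me1 (10.8 and 18.8%) exceeded H3K27ac (2.74 and 3.22%).

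The same gap appeared at H3K27ac summits. Over the 4 pairs of an H3K27ac and an H3K4me1 library, H3K4me1 covered 10.1 to 20.5% of the summits of H3K27ac peaks within 1 kb of a start. For H3K27ac peaks away from starts and gene ends it covered 72.6 to 84.4%, so the ranges of near and distant peaks were far apart. The near-start summits were not isolated from H3K4me1, since 40.9 to 66.3% had it on both sides within 1500 bp but not at the summit. Only 1.88 to 10.4% had none within that distance. At distant peaks the flanks-only arrangement held for 7.78 to 12.3%. WT libraries gave 13.6 to 19.6% near starts and 66.7 to 84.2% away.

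H3K4me1 was rarer at the summits of stronger H3K27ac peaks. Near starts, H3K4me1 regions covered 51.8 and 57.5% of summits in the weakest quintile of each H3K27ac list by −log10 q, and 6.18 and 4.79% in the strongest quintile. Away from starts the weakest quintile gave 79.6 and 81.7% and the strongest 47.6 and 39.96%. Strong peaks were wider, with a median of 1549 and 1692 bp in the strongest quintile against 319 and 278 bp in the weakest. The part of peak width in this trend was not tested.

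**Figure D1:**
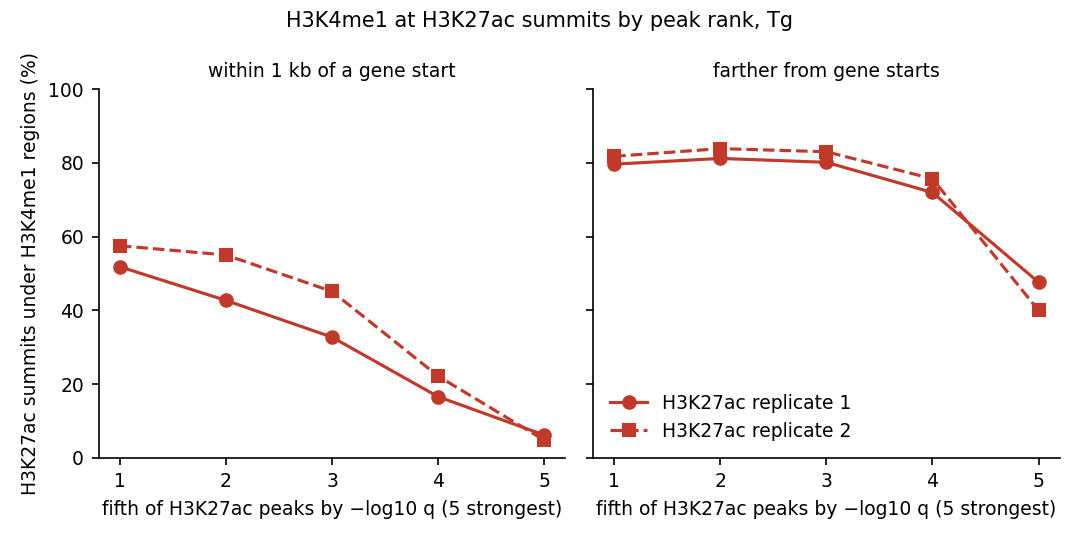
Percentage of H3K27ac summits under H3K4me1 regions (vertical axis) in each quintile of the H3K27ac peaks ranked by −log10 q within a library (horizontal axis, 5 strongest), near starts and farther away, for both Tg libraries. Near starts the share goes from 51.8 and 57.5% to 6.18 and 4.79%; farther away it is 71.9 and 75.7% in quintile 4 and 47.6 and 39.96% in the strongest.

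The strongest regions without the other mark differed in their distance from listed gene starts. By the smaller of the replicates' percentiles of −log10 q within their lists, the 5 strongest H3K27ac regions touching no H3K4me1 all lay at a start or within 52 bp of one. They belonged to LOC108167694, Srsf6, the splicing regulator Ptbp1, the transcription termination factor Pcf11 and Phf8, were 1746 to 3980 bp wide and had H3K4me3 in all 4 libraries. At Srsf6 the H3K27ac region (chr2:162930519-162932525) held 1784 and 2007 bp of peaks, with 0 bp of H3K4me1 in both libraries. In WT, the regions at LOC108167694, Pcf11 and Phf8 again had H3K27ac alone, while those at Srsf6 and Ptbp1 also touched H3K4me1.

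The 5 strongest H3K4me1 regions touching no H3K27ac lay inside or beside Lig1, a DNA ligase, Siglec1, a macrophage adhesion receptor, Sh2b3, the LNK adaptor that restrains cytokine signalling, Sema4a and Mapk12. All 5 were over 1 kb from the nearest listed start, by 1619 to 35831 bp, and all 5 had H3K4me1 alone in WT too. Siglec1 itself has no listed start. Its region lay 851 bp outside the gene, and the 35831 bp is to the start of Hspa12b. The regions in Sh2b3 and Sema4a had H3K4me3 in all 4 libraries, like the H3K27ac regions above. The region in Sh2b3 (chr5:121822107-121826197) held 3342 and 4076 bp of H3K4me1 and 0 bp of H3K27ac. Its percentile among H3K4me1 peaks was 99.5 in Tg and 66.0 in WT, the smaller of 2 libraries each. In WT the percentile was 95.4 at Lig1, 79.6 at Siglec1, 78.4 at Sema4a and 89.1 at Mapk12. The regions were ranked by their Tg percentile, so a lower value in WT follows in part from the choice. The strongest shared regions included a pair at Vav1, which encodes a blood-cell signalling protein. The one inside the gene (chr17:57288371-57292354) held 2039 and 1999 bp of H3K27ac and 2963 and 3984 bp of H3K4me1. The other, 2639 bp outside the gene, ranked at percentile 99.99 among H3K4me1 peaks in Tg and 62.0 in WT. It too was chosen by its Tg rank, and a difference between genotypes was not tested there.

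Distal H3K4me1 was often without H3K27ac. Of 49817 H3K4me1 regions over 1 kb from gene ends, 13337 (26.8%) touched an H3K27ac region and 30002 (60.2%) touched no H3K27ac peak. Of the 30629 among them without H3K4me3, 2699 (8.81%) touched an H3K27ac region and 24508 (80.02%) touched no H3K27ac peak. In WT the corresponding shares were 13.6 and 74.0%. Under the same 1 bp rule, the Tg distal regions without H3K4me3 had a median width of 1548 bp with both marks and 880 bp with H3K4me1 alone.

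Overlap with the kept regions of the other mark was lower in Tg than in WT libraries, within what 2 libraries can show. H3K27ac length under H3K4me1 was 58.4 and 60.1% in Tg libraries and 66.4 and 63.5% in WT. H3K4me1 length under H3K27ac was 21.8 and 17.1% in Tg and 32.6 and 24.3% in WT. Scored against these shared regions, the genotypes did not overlap in either share. Both comparisons gave p = 0.333 (exact permutation test), the smallest possible. The mean H3K27ac difference, Tg minus WT, was -5.70 percentage points, and it was -2.17 among the 30000 strongest peaks, -2.06 over base pairs covered in both replicates, -3.41 without replicate 1 of Tg H3K4me1 and -17.1 without replicate 2 of it. For the H3K4me1 share (-8.99) p was 0.667 without either Tg H3K4me1 library, in the same exact test. Scored between single libraries of the 2 marks, the genotypes did overlap. The H3K27ac share was then 47.2 to 62.8% in Tg and 49.4 to 69.7% in WT. The H3K4me1 share was 14.7 to 23.2% in Tg and 20.1 to 35.3% in WT. Median H3K27ac width was lower in Tg, 582.5 ± 12.02 bp against 784.5 ± 95.5 bp in WT (SD, n = 2 each). The part of width in the overlap was not tested. H3K27ac peaks without any H3K4me1 were more often near a start in Tg, at 40.9 and 28.6% against 13.1 and 20.4% in WT (exact permutation test, p = 0.333).

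Counted over genes, both marks were usually present together. Within 10 kb of a gene, 11744 of 21883 protein-coding genes (53.7%) had both marks in both replicates, 113 (0.516%) had H3K27ac only, 1909 (8.72%) had H3K4me1 only and 5601 (25.6%) had neither. Of the 113 genes, 49 were in the same class in WT, and of the 1909, 1192 were. Without replicate 2 of H3K4me1 the H3K27ac-only genes numbered 513, and without replicate 1 of H3K4me1 the H3K4me1-only genes numbered 2901. Among the 30000 strongest peaks of each library the counts turned to 2341 and 420. The strongest H3K27ac-only genes included Erap1, a peptidase that trims antigens, the histone gene H2ac1, and Taf1, the largest TFIID subunit. Erap1 had 871 and 1334 bp of H3K27ac and 0 bp of H3K4me1 in both libraries, and Taf1 had 1705 and 2565 bp against 0. The strongest H3K4me1-only genes included Siglec1 (4709 and 5547 bp against 0), the splicing factor gene Esrp2 (5042 and 5955 bp) and Ripor3 (4243 and 5708 bp).

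The length covered by peaks within 10 kb was compared between marks in limma after quantile normalization, so a contrast is relative to the other genes. Of 15111 genes tested, 3111 (20.6%) had relatively more H3K27ac and 2800 (18.5%) relatively more H3K4me1 at an adjusted p under 0.05. Without normalization, where the median gene is at -0.86 on the log2 scale, the split was 134 against 5014. Leaving out 1 library at a time gave 151 to 996 and 406 to 1428 genes, the lowest of both without replicate 1 of H3K27ac. The 16 genes with the largest contrasts kept their direction and their call without normalization. They were chosen for their contrast in these same libraries, so this is no separate support.

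Crlf2, a cytokine receptor subunit for TSLP, had the largest contrast towards H3K27ac, with 6959 and 7599 bp of H3K27ac and 376 and 1348 bp of H3K4me1. Its contrast was 3.73 ± 0.17 on the log2 scale (SE; limma adjusted p = 0.00297). Il3ra, the interleukin-3 receptor alpha chain, had 3451 and 6516 bp of H3K27ac and 252 and 792 bp of H3K4me1, a contrast of 3.41 ± 0.26. Both genes were chosen for their contrast in these libraries, so a gap between their marks follows from the choice. LOC108167694 (3895 and 3980 bp) and Olfr1033, an olfactory receptor gene (2633 and 2549 bp), had 0 bp of H3K4me1. Zbtb37 and Rbm12b1 completed the autosomal genes of this group, with contrasts of 2.97 and 2.89. Asmt and Vsig4, an immunoglobulin-family receptor of macrophages, are on chromosome X. Vsig4 had 6747 and 6013 bp of H3K27ac and 538 and 2551 bp of H3K4me1.

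At the other end stood genes with long H3K4me1 stretches and little or no H3K27ac. Cd34 had 7598 and 9989 bp of H3K4me1 and 0 bp of H3K27ac in both libraries, a contrast of -3.17 in Tg and -2.35 in WT. Genes with 0 bp of a mark entered the test through the other mark alone, and the size of their contrast depends on the 500 bp added to each length. Notch3 had 8030 and 10121 bp of H3K4me1 against 0 bp. The kinase gene Pak6 had 13130 and 18998 bp against 284 and 280 bp, and a contrast of -3.50. Plekhh3 and Rtn4rl2 also had 0 bp of H3K27ac. Erp27, Timm8a2 and the adenosine receptor gene Adora2a had H3K27ac in replicate 2 only, at 717, 375 and 672 bp.

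**Figure D2:**
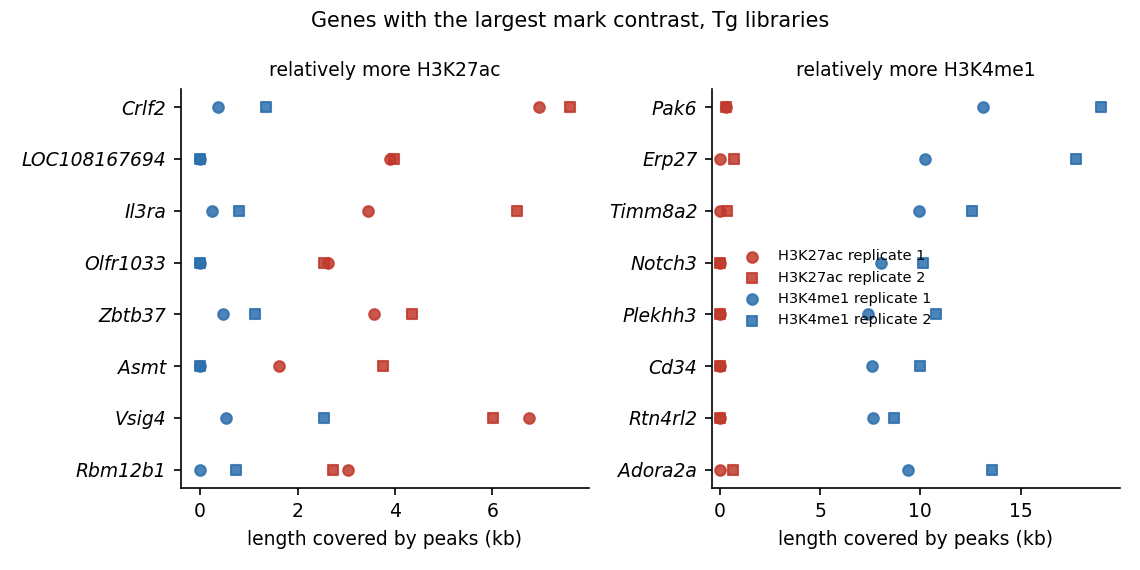
Length covered by peaks within 10 kb of each gene (kb, horizontal axis) in each Tg library, for the 8 genes per direction with the largest mark contrast. Red points are H3K27ac and blue points H3K4me1. The 16 genes were chosen for their contrast in these libraries, so the gap between the marks follows from the choice.

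Kit and Phf6 stood on opposite sides. Kit had 2177 and 2048 bp of H3K27ac and 7352 and 9389 bp of H3K4me1, a contrast of -0.83 ± 0.21 (limma adjusted p = 0.0295). Phf6 had 1988 and 2072 bp of H3K27ac and 0 and 652 bp of H3K4me1, a contrast of 2.46 ± 0.19 (adjusted p = 0.00297), and 2.57 in WT. The transgene's product is not resolved by these peaks.

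Gene lists were read against the 20.6 and 18.5% called among all genes tested, and against a median contrast of 0.05. Housekeeping lists leaned to H3K27ac under this scaling. Of 57 cytosolic ribosomal protein genes, 25 had relatively more H3K27ac and 1 relatively more H3K4me1, with a median of 0.51. Rps6 had 1538 and 1858 bp of H3K27ac against 563 and 1664 bp of H3K4me1. Of 59 mitochondrial ribosomal protein genes, 20 and 4 were called, with a median of 0.37. Without normalization these lists had 0 against 4 and 0 against 6 calls and medians of -0.36 and -0.45, still above the -0.86 of all genes.

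Enzymes that write, erase or read marks on H3K4 and H3K27 often had H3K27ac alone at their starts, at 13 of 23 starts (56.5%). This compares with 12.7% of all starts, but 22 of the 23 had H3K4me3 in all 4 libraries, against 58.6% of all starts. Those with H3K27ac alone included the H3K4 methyltransferases Kmt2a, Kmt2c and Kmt2d, the acetyltransferases Ep300 and Crebbp, and the polycomb genes Ezh2, Eed and Suz12. In the gene contrast 7 of 24 had relatively more H3K27ac and 3 relatively more H3K4me1 under quantile normalization, and 0 and 4 without it. X-linked Kdm6a, an H3K27 demethylase, had 2973 and 3183 bp of H3K27ac and 706 and 1475 bp of H3K4me1. Ezh1, the other polycomb methyltransferase, ran against the group, with 629 and 718 bp of H3K27ac and 3858 and 4178 bp of H3K4me1 (contrast -1.09, limma adjusted p = 0.0217). NuRD genes, a complex that deacetylates and remodels chromatin, had H3K27ac alone at 6 of 15 starts, against 12.7% of all starts. All 15 of these starts had H3K4me3 in all 4 libraries. Of 15 NuRD genes, 3 were called towards H3K27ac and 4 towards H3K4me1, near the 20.6 and 18.5% of all genes tested.

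Most lists of cell type markers had more genes called towards H3K4me1 than H3K27ac, those of other lineages and myeloid ones alike. No start had H3K27ac alone in the mast cell, B-lymphoid, T-lymphoid, NK cell, megakaryocyte, erythroid, stroma and endothelium, mature granulocyte, or monocyte and macrophage lists, or in either homeobox list. In these lists, starts with neither mark ranged from 0 of 17 for mature granulocytes to 11 of 18 for T-lymphoid genes. Among all starts this share was 37.6%. Members with a single mark entered the test through the libraries of that mark. The counts of calls therefore describe the tested members and not the whole lists. Of 10 mast cell and basophil genes tested, from a list of 13, 7 had relatively more H3K4me1 and 0 relatively more H3K27ac. Of 12 stroma and endothelium genes tested, from 18, the counts were 9 and 0. The medians were -1.33 and -1.29. T-lymphoid genes gave 6 and 1 of 13, B-lymphoid genes 6 and 2 of 17, NK cell genes 5 and 0 of 9, and megakaryocyte genes 6 and 0 of 14. Erythroid genes did not lean, with 2 and 2 of 16. Tcf7, a transcription factor of T cells, had 7455 and 8682 bp of H3K4me1 and 0 bp of H3K27ac, and a contrast of -3.06. Blnk, a B-cell adaptor, had 5940 and 9022 bp against 0, and Vwf, the von Willebrand factor gene, 3599 and 6178 bp against 0. In WT, Blnk and Vwf had both marks. Pax5 and Zap70 also had H3K4me1 only, but with 368 and 1444 bp and 245 and 1489 bp their contrasts did not pass (adjusted p = 0.409 and 0.630).

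Of 14 myeloid progenitor genes, 2 had relatively more H3K27ac and 6 relatively more H3K4me1, and 0 and 7 without normalization. Ctsg, the granule protease cathepsin G, had 8304 and 7729 bp of H3K27ac and 5303 and 7906 bp of H3K4me1 (contrast 1.19, limma adjusted p = 0.00640), and Mpo had 10152 and 11034 bp against 8201 and 15824 bp (contrast 0.74, adjusted p = 0.0364). Irf8, a transcription factor for monocytes and dendritic cells, had 0 bp of H3K27ac and 4416 and 7407 bp of H3K4me1. Without normalization Ctsg stayed above 0, at 0.29, but did not pass. Monocyte and macrophage genes leaned strongly to H3K4me1, at 10 of 13 tested against 1, from a list of 16. Ccr2, the chemokine receptor of inflammatory monocytes, had 3634 and 9686 bp of H3K4me1 and 0 bp of H3K27ac.

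Of 17 mature granulocyte genes, 3 were called in each direction under quantile normalization, and 0 towards H3K27ac and 8 towards H3K4me1 without it. Ngp, a protein of secondary granules, had 9257 and 9662 bp of H3K27ac and 5843 and 7349 bp of H3K4me1. Mmp8, the neutrophil collagenase, had 1399 and 2302 bp against 9061 and 16372 bp, a contrast of -1.58 (limma adjusted p = 0.00539). Mmp8's contrast in WT was 0.10, and the list's median was -0.23 in Tg and 0.86 in WT. None of the 17 genes passed the test of a difference between genotypes.

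Cytokine receptors and their signalling genes also divided. Of 20 receptors, 3 had relatively more H3K27ac, namely Il3ra, Csf2ra and Il7r, and 9 had relatively more H3K4me1. Without normalization the counts were 1 and 10, and Csf2ra and Il7r did not pass (limma adjusted p = 0.442 and 0.556). Il7r had 435 and 949 bp of H3K27ac and 0 and 1005 bp of H3K4me1. The beta chain genes Csf2rb and Csf2rb2, whose products pair with receptor alpha chains, were on the other side. Csf2rb had 3259 and 3387 bp of H3K27ac and 14314 and 18703 bp of H3K4me1 (contrast -1.25). Csf2rb2 had 266 and 1005 bp against 6586 and 12916 bp (contrast -2.29, limma adjusted p = 0.00383). Without normalization their contrasts were -2.14 and -3.18, where the median gene is at -0.86. Of 22 JAK-STAT genes, 6 had relatively more H3K4me1 and 1 relatively more H3K27ac, and 11 and 0 without normalization. Socs3, an inhibitor of cytokine signalling, had 295 and 2079 bp of H3K27ac and 18596 and 21276 bp of H3K4me1. Socs2 had 0 bp of H3K27ac and 1168 and 5059 bp of H3K4me1.

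No homeobox gene of either list had H3K27ac only, while some had H3K4me1 only. Of 21 Hoxa and Hoxb genes 14 had both marks, 5 had H3K4me1 only (8.72% of all genes do) and 0 H3K27ac only, and 6 of 20 tested had relatively more H3K4me1 against 0. Of 44 homeobox genes outside those clusters 21 had H3K4me1 only, 2 had both marks, 8 neither, 13 a mark in a single replicate and 0 H3K27ac only. Hoxa11 had 4388 and 5438 bp of H3K4me1 and Dlx1, a developmental regulator, 4321 and 6933 bp, both against 0 bp of H3K27ac. Neighbouring genes of a cluster share peaks.

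**Figure D3:**
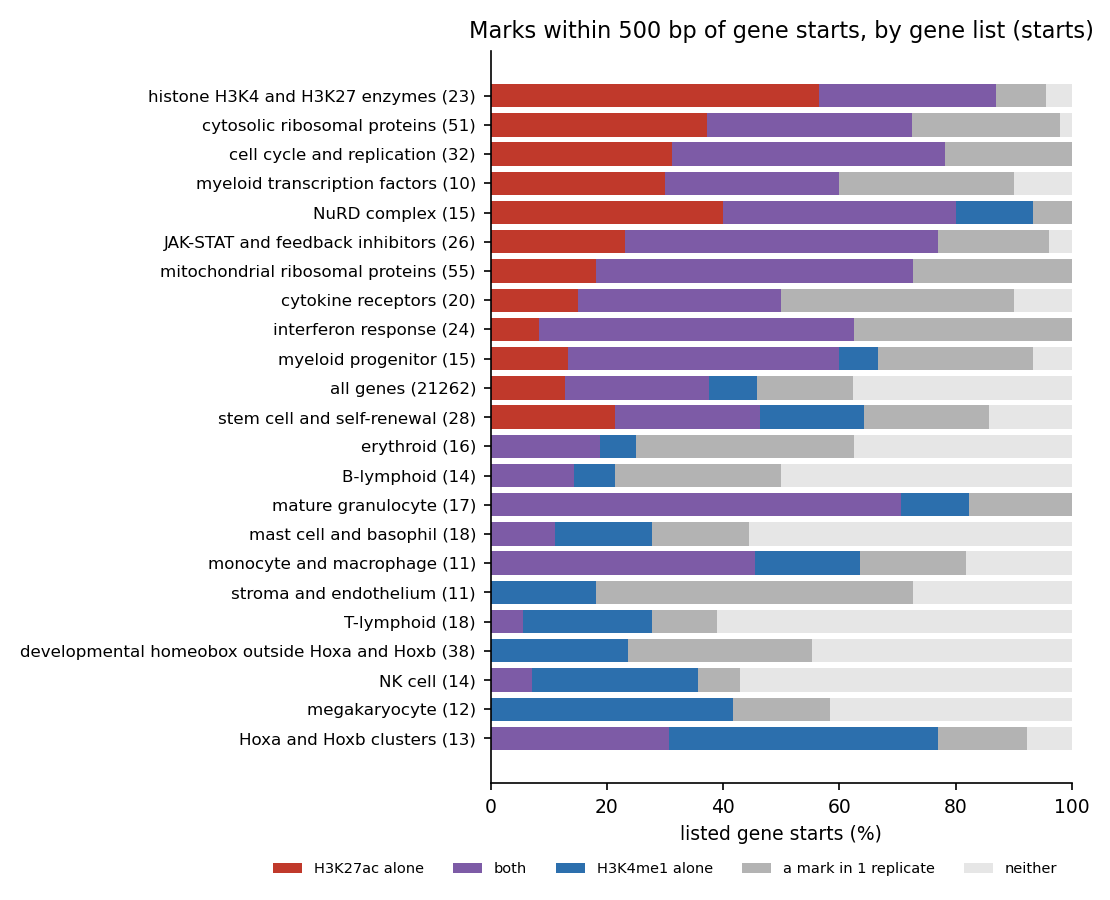
Percentage of listed gene starts (horizontal axis) in each class of marks within 500 bp in the Tg libraries, for each gene list, with the number of starts in brackets. H3K27ac alone is at 56.5% of starts of the histone enzyme list and 12.7% of all starts, and at 0 starts of 11 lists, the mature granulocyte and monocyte lists among them.

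Chromosome X departed from every autosome. Only 41.6% of its 555 H3K27ac regions touched an H3K4me1 region, against 83.8 to 91.9% on autosomes, and 22.1% of their length was under H3K4me1. X had 1.56 H3K4me1 regions per H3K27ac region, against 2.58 to 2.99 on autosomes. In WT 42.6% of X regions touched H3K4me1, so this was seen in both genotypes. By library, 34.3 and 40.1% of X-linked H3K27ac peaks touched H3K4me1 regions, against 81.0 and 84.8% of autosomal ones. X-linked peaks were more often near starts (39.2 and 36.5% against 27.7 and 23.7%). The gap was also present at each place, with 18.6 and 24.3% against 71.1 and 79.5% near starts and 44.3 and 49.2% against 84.8 and 86.5% farther away. The X share of peaks was 2.39 and 2.12% for H3K27ac and 1.26 and 1.85% for H3K4me1 (exact permutation test, p = 0.333, the smallest possible).

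**Figure D4:**
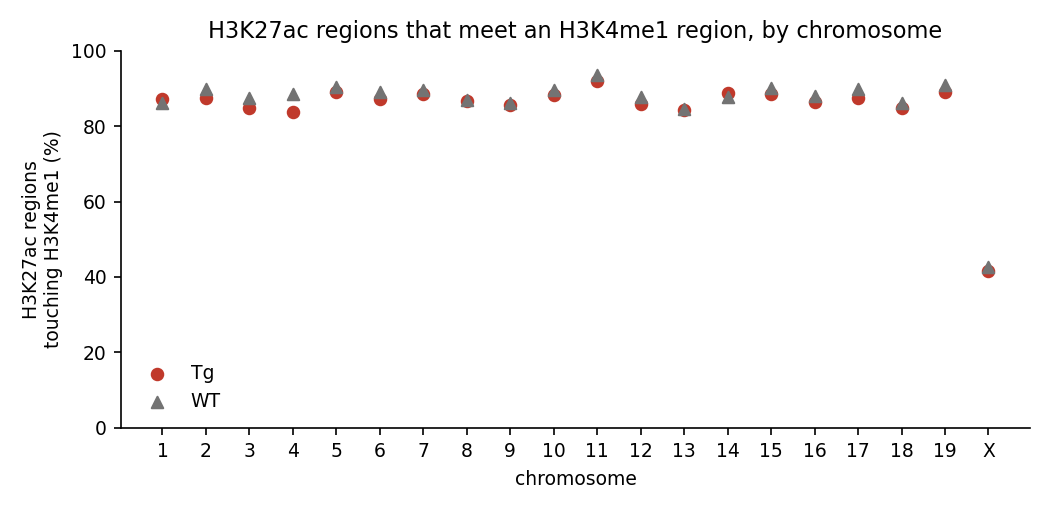
Percentage of H3K27ac regions that touch an H3K4me1 region (vertical axis) on each chromosome (horizontal axis), in Tg (circles) and WT (triangles). Tg autosomes lie between 83.8 and 91.9%, and X is at 41.6% in Tg and 42.6% in WT.

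X-linked genes followed. Of 370 X-linked genes tested, 250 (67.6%) had relatively more H3K27ac and 12 (3.24%) relatively more H3K4me1, against 19.4 and 18.9% of autosomal genes. The median contrast was 1.23 on X and 0.03 on autosomes. Without normalization, 55 of the 134 genes with more H3K27ac were on X, which holds 2.45% of the genes tested. X also held 30 of the 113 genes with H3K27ac only. Xist, the RNA gene of X inactivation, had 1 and 1 H3K27ac peaks and 1 and 6 H3K4me1 peaks in Tg. On Y, Ddx3y, Uty, Kdm5d and Eif2s3y had 0 peaks of either mark. Over the whole of Y the Tg lists held 59 and 48 H3K27ac peaks and 7 and 18 H3K4me1 peaks. The sex of the mice was not tested. The X-linked H3K4me1 peaks were also weaker, with a median −log10 q of 4.08 and 4.91 on X against 5.34 and 6.97 on autosomes, whereas for H3K27ac the medians were 9.24 and 12.6 against 9.34 and 10.6. The part of peak strength in the overlap was not tested.

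Few genes passed the test of a difference between Tg and WT in the contrast of the marks. With 2 libraries per mark and genotype, a gene that did not pass cannot be called unchanged. The interaction of mark and genotype in limma, over 16040 genes, passed for 3 (0.0187%), which are AA986860, Olfm4 and Tmem45a2. Olfm4 and Tmem45a2 had 0 bp of both marks in Tg and entered the test only through the WT H3K27ac libraries. The number of genes that pass depended on the settings. This count was 0 with a pseudocount of 100 bp, without normalization, with a stricter peak threshold and with gene windows of 2 kb. At an unadjusted p under 0.05 limma gave 1799 genes as reported and 1525, 305, 1393 and 1226 under those settings. Without replicate 2 of H3K4me1 in WT it was 123.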

How the data were processed

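Chromatin immunoprecipitation sequencing of sorted cKit+ bone marrow cells gave 1 narrowPeak list per library. The submitters' processing notes name Bowtie2 and MACS2, the build mm10, and the helper tools Trim Galore, FastQC, deepTools and SAMtools. Their versions, settings and control libraries are not given in the sources used here. Each deposited peak has a score, a fold ratio over background, a −log10 p-value and a −log10 q-value, which are the authors' own values. They served only to rank or filter peaks within a list. The deposited lists hold no read counts, so no interval for counting error was computed.

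Regions, overlaps and distances were computed with numpy 2.4.6 and pandas 2.3.3, with contact meaning at least 1 bp, on chromosomes 1 to 19, X and Y. Genes (21883 protein-coding) and starts (21262 starts of 17491 of them) came from RefSeq tables of GRCm38.p6. Regions touching peaks of the other mark in a single replicate formed a class of their own. Per gene, the length covered by peaks within 10 kb was changed to log2 after adding 500 bp, for genes covered in at least 2 libraries, quantile normalized and fitted in limma 3.58.1 with Benjamini-Hochberg adjustment over all genes tested and a threshold of 0.05. The 4 Tg libraries leave 2 residual degrees of freedom. The interaction with genotype was fitted on all 8 libraries. All folds are on the log2(bp + 500) scale. Interval and limma code was tested on simulated data.

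Alternatives were a stricter −log10 q of 5, the 30000 strongest peaks, 2 kb windows, a pseudocount of 100 bp, other scalings, no filter, a replicate block and leaving out each library. Genes named are the 8 largest contrasts per direction and the 6 strongest one-mark genes per mark (without Gm and Rik models or genes within 20 kb of one taken), the 5 strongest regions per class, up to 4 members of each of 22 lists and their one-mark members, Kit and Phf6; the text gives part of them. Other list members, in particular Mpo, Ezh1, Ep300 and their group, were picked after their values were seen. Members and lists were chosen with earlier results of these data known.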

Additional observations from a re-analysis of the deposited data

Results flagged for a closer look

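At 3 genes the contrast of H3K27ac minus H3K4me1 differed between Tg and WT by the limma interaction over 16040 genes. At AA986860 it differed by 2.58 ± 0.25 (log2, SE; limma adjusted p = 0.0378). H3K4me1 covered 0 and 581 bp in Tg and 3360 and 4777 bp in WT there, and H3K27ac 359 and 734 bp in Tg and 667 and 499 bp in WT. At Olfm4, a granule protein gene, the fitted difference was -2.73, and at Tmem45a2 it was -3.73. Both entered the test only through the 2 WT H3K27ac libraries, where they are high, so no p-value is given for them and the size depends on the 500 bp added. Neither mark had a peak within 10 kb of Olfm4 or Tmem45a2 in any Tg library. In WT, H3K27ac covered 3602 and 2795 bp at Olfm4 and 7264 and 6932 bp at Tmem45a2, with 0 bp of H3K4me1 at both. These 2 genes therefore differ in H3K27ac and say nothing of where the marks part in Tg cells.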

How the results depend on the processing

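Depth is unknown, and 2 libraries per mark cannot give an exact permutation p under 0.333, so no comparison of shares or widths could pass a threshold. The difference in peak width reversed, at -25 bp with a −log10 q of at least 5, -550.5 bp among the 30000 strongest peaks and -36.5 bp without replicate 1 of H3K4me1; leaving out each library gave -36.5 to 96.5 bp. With a −log10 q of at least 5, H3K4me1 regions numbered 39099, H3K27ac-only genes 281 and H3K4me1-only genes 1215. With the 30000 strongest peaks they numbered 17598, 2341 and 420, genes with relatively more H3K27ac 1530 and with relatively more H3K4me1 1723. Leaving out each library gave 24271 to 38839 H3K27ac regions and 66638 to 121172 H3K4me1 regions (a left-out library leaves 1 list, so no replicate was required), 143 to 513 H3K27ac-only genes, and 2002 to 2901 H3K4me1-only genes. No normalization gave 134 and 5014 genes. In the leave-one-out fits the lone library is assumed to vary like the other mark, and the counts were 151 to 996 and 406 to 1428. The genes differing between genotypes numbered 0 with a −log10 q of at least 5, 2 kb windows, a pseudocount of 100 bp or no normalization, and 0 to 123 leaving out each library. The difference between near-start and distant summits, -63.6 percentage points, was -51.5 among the 30000 strongest peaks and -65.6 to -58.5 leaving out each library. The X share difference, 0.70 percentage points, was 1.24 with a −log10 q of at least 5, 1.91 among the 30000 strongest peaks and 0.41 to 0.99 leaving out each library. The last 2 results were added after seeing the data. The cause of these shifts was not tested. None of 177 refits of the 16 most contrasted genes reversed direction. These genes were chosen for their contrast in the same libraries, so a kept direction follows largely from the choice and is no separate support. With all 4 libraries kept, Asmt missed the threshold with 2 kb windows (limma adjusted p = 0.0628). Genes with peaks in fewer than 2 libraries could not be refitted. These were Cd34, Notch3, Plekhh3 and Rtn4rl2 when an H3K4me1 library was left out. For H3K27ac libraries they were LOC108167694, Olfr1033 and Asmt. Leave-one-out refits of these genes were read for direction only.

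Whether same-numbered libraries of the 2 marks came from the same animals is unknown. The names inside the lists give number 3 to replicate 2 of both marks, in Tg and in WT. The replicate differences of the marks correlated at 0.09 across 15111 genes in Tg and -0.03 in WT. Such a correlation cannot settle the pairing, because the marks differ. With a replicate block, 3294 genes had relatively more H3K27ac and 3036 relatively more H3K4me1, and 0 differed between genotypes.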

Other observations

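The genes Crlf2, Il3ra, Csf2ra and Asmt, whose human counterparts lie in the pseudoautosomal region of the sex chromosomes, all had relatively more H3K27ac in Tg libraries, with contrasts of 3.73, 3.41, 1.37 and 2.96. In mouse they lie on chromosomes 5, 14, 19 and X. In WT the contrasts were 3.74, 3.73, 1.24 and 3.09. They were picked after their values were seen, and this has no test. Asmt had 1619 and 3751 bp of H3K27ac and 0 bp of H3K4me1 in both libraries.

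The 3 strongest H3K27ac regions that touch H3K4me1 all lay inside Tex14, 37401 to 65691 bp from its start. They were 880 to 1102 bp wide, had H3K4me3 in all 4 libraries and were also at percentile 99.5 or above in WT. The 2 strongest H3K4me1 regions lay at Sfi1, where they were 4261 and 4668 bp wide. Whether reads map uniquely at Tex14 and Sfi1 was not tested.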
